A study of Mus musculus with 15 samples.

Results

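The 4 hearts described here came from male C57BL6 mice, 12 weeks old, that received saline under the skin as the controls of an isoproterenol series. They are 4 of the 15 samples of that series and were chosen by treatment alone. No treated heart enters any value. The labels give the tissue as heart, and the study describes the RNA as ventricular, so cardiomyocytes, fibroblasts, vessel cells, blood cells and macrophages can contribute to each library. Total RNA was sequenced, which keeps transcripts with and without a poly(A) tail. Hearts carry the letters A to D of the labels, and ± is the SD over the 4 hearts. The study gives the saline period only as similar to that of the treated mice, without the days of each animal, and the time of day of collection is not given in its text.

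The ventricle contracts without rest and draws most of its ATP from mitochondria that fill much of each cardiomyocyte. It is known for 2 large groups of messages, those of the sarcomere, the repeating unit of thick and thin filaments, and those of oxidative metabolism. Mitochondria carry a small genome of their own, with 2 ribosomal RNA genes and 13 protein genes. Its transcripts are copied from long precursors and cut apart.

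Libraries held 28889500 to 117777005 expected counts, the fractional read counts that RSEM assigns to genes. Saline D was the shallowest library and C the deepest. CPM is counts scaled to library size. Across 11485 coding genes, the pairwise Pearson correlation of log2 CPM lay between 0.98 and 0.99, which is a description of hearts that share strain, tissue and protocol. The Y-linked helicase gene Ddx3y stood at 16.8, 16.3, 13.9 and 13.4 FPKM in A to D, and Xist, the RNA of the inactive X, at 0.04 to 0.08 FPKM, as in male tissue. FPKM divides CPM by the effective length of the gene in kilobases and is the scale on which genes are compared with each other below.

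Mitochondrial ribosomal RNA took 45.9% ± 3.61 of all counts and was the largest class in every heart. It held 41.8% in A, 44.7% in B, 46.7% in C and 50.4% in D. Nuclear protein-coding genes followed with 36.2% ± 3.11, and D was again apart, with 31.7% against 36.7 to 38.5% in the others. Messages of the mitochondrial genome took 8.21% ± 0.78, misc_RNA genes 3.72% ± 0.51, pseudogenes 3.89% ± 0.52 and long non-coding RNA (lncRNA) genes 1.22% ± 0.2. Small RNA genes held 0.41% ± 0.05. Genes annotated as nuclear rRNA held 0.04% ± 0.02. Of 41 such genes at 1 FPKM or more, 1 had an effective length of at least 100 bases in every library. This share does not measure all ribosomal RNA of the cytosol, and the study's text does not say whether ribosomal RNA was removed before sequencing. The shares are those of counts assigned to annotated genes, not of all RNA in the tissue. The order of the first 3 classes was the same in all 4 hearts.

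**Figure D1:**
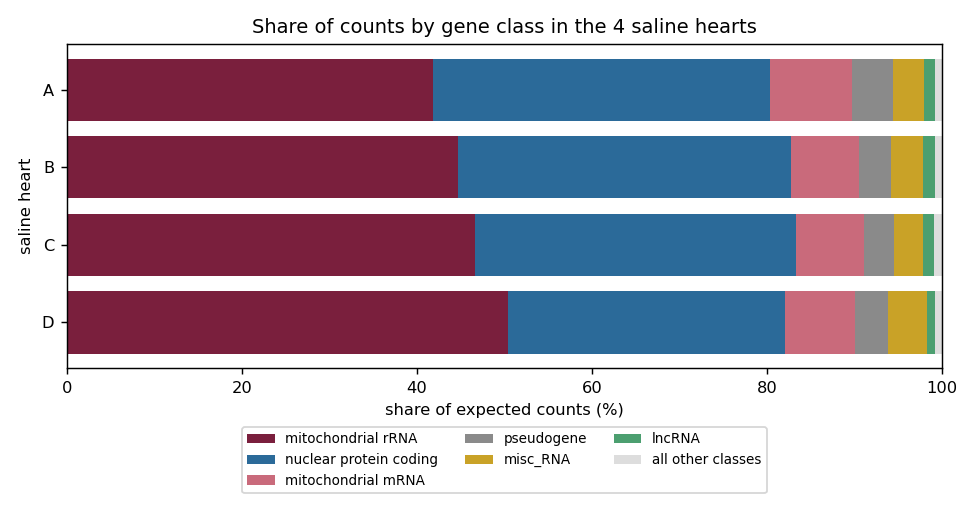
Share of expected counts (%) by gene class, one bar for each saline heart. Mitochondrial rRNA takes 41.8 to 50.4% and nuclear protein-coding genes 31.7 to 38.5%, with heart D at the upper end of the first and the lower end of the second.

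These shares depend on the scale, because very short genes have small effective lengths. On summed FPKM, misc_RNA rose to 24.1% and small RNA to 11.4%, while nuclear coding genes fell to 15.9%. The misc_RNA class was carried by Rn7s1 and Rn7s2, the RNA of the signal recognition particle, and by Rn7sk, which holds the elongation factor P-TEFb inactive. Rn7s1 and Rn7s2 each stood at 113734 FPKM ± 12294 with identical values in every heart, so their division between the copies is uncertain. Rn7sk reached 38551 FPKM ± 4572. Rpph1, the RNA of ribonuclease P, reached 8476 FPKM ± 1326. The 22 mitochondrial tRNA genes were listed with an effective length of 0 and an FPKM of 0, which gives no level for them.

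Within the mitochondrial genome, mt-Rnr2, the 16S rRNA of the large ribosomal subunit, stood at 259873, 271889, 286897 and 308426 FPKM in A to D. mt-Rnr1, the 12S rRNA of the small subunit, stood at 63557, 77570, 83605 and 84074 FPKM. Both were lowest in A and highest in D, and they did not overlap with any protein gene. Among the messages mt-Co1, the catalytic subunit of cytochrome c oxidase, led with 25364 FPKM ± 3003. mt-Atp8 followed at 21276 FPKM ± 1553, on an effective length of 44.2 bases in the library where it was smallest. mt-Nd1, of complex I, and mt-Cytb, of complex III, reached 11570 FPKM ± 2097 and 11313 ± 1487.

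Cytochrome oxidase subunit genes mt-Co2 and mt-Co3 were listed far lower, at 250.2 FPKM ± 113.2 and 629 FPKM ± 235. Mouse chromosome 1 carries a copy of part of the mitochondrial genome, annotated in GENCODE M21 (GRCm38) as 7 unprocessed pseudogenes on the minus strand between Gm28439, which starts at 24611535, and Gm29216, which ends at 24616197. For 6 of the 7 the aligned bases were 100% identical to the mitochondrial gene, over 294 to 876 bases. Gm29216 differed from mt-Co1 at 1 of 483 aligned bases. The first 60 coding bases of both subunits are shown because they are the same letters in both places, with the start codon in capitals. Positions are chrM:7013-7072 and chr1:24615506-24615565 for mt-Co2 and Gm28661, and chrM:8607-8666 and chr1:24613912-24613971 for mt-Co3 and Gm28437. The mitochondrial copy is on the plus strand and the nuclear copy on the minus strand.
mt-Co2 and Gm28661: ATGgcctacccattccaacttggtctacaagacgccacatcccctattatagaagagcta
mt-Co3 and Gm28437: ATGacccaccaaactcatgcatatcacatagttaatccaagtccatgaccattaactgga

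Reads from such a stretch cannot be told apart by sequence. Gm28661 held 99.1% ± 0.55 of the counts it shared with mt-Co2, and Gm28437 held 97.1% ± 0.93 of those shared with mt-Co3. Gm10925 held 81.8% ± 4.34 of the counts shared with mt-Atp6, a subunit of ATP synthase. By contrast Gm29216 held 4.93% ± 1.73 of those shared with mt-Co1, of which it covers only part. The 7 copies took 3.58% ± 0.52 of all counts, or 92% ± 1.37 of everything assigned to pseudogenes. With the copies added, mt-Co2 rose from 192.3 to 21276 CPM per kilobase and mt-Co3 from 499.9 to 16846, next to 23790 for mt-Co1. CPM per kilobase divides by the full length of the gene, not by the effective length. On this scale the 3 oxidase subunits took the first 3 places among the mitochondrial messages. mt-Atp8 stood at 5199, against 21276 FPKM on its short effective length. mt-Nd6, the only message read from the other strand, came second to last at 2730 CPM per kilobase ± 801, ahead of mt-Nd4l at 2192 ± 368. Where strand is not used, reads of transcripts from the opposite strand can add to mt-Nd6, so its level and place are uncertain. The order depends on the scale. On FPKM mt-Nd6 stood at 3964, mt-Nd4l at 1955 and its copy Gm10222 at 2990. Levels of mt-Co2, mt-Co3 and mt-Atp6 alone, and of their copies alone, are therefore uncertain. All transcripts of mitochondrial sequence, copies included, made up 57.7% ± 2.93 of the counts.

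Of 21884 nuclear coding genes, 10142 had a mean of at least 1 FPKM, 2641 of at least 10, 260 of at least 100 and 13 of at least 1000. In 3988 genes no count was assigned in any of the 4 libraries. The first 10 genes held 15% ± 0.7 of the FPKM of all ranked coding genes, the first 100 held 36.4% ± 1.68, and 271 genes held 50%. The first 100 had short messages, with a median length of 947 bases for their most used isoform and a median of 6 exons, against 2613 bases and 8 exons among the 10133 ranked coding genes at 1 FPKM or more. FPKM divides by length, so the same count gives a shorter gene a higher rank.

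Myl2, a light chain that tunes ventricular myosin, ranked first, at 5978 FPKM in A, 4812 in B, 4942 in C and 4847 in D. Myh6, the fast alpha heavy chain of adult mouse ventricle, followed at 4412, 4309, 3384 and 4497 FPKM, lowest in C. Tpm1, the tropomyosin that covers the myosin sites on actin, stood at 3156 FPKM ± 443. Mb, the oxygen-binding myoglobin, stood at 3149 ± 314 and overlapped with Tpm1 between hearts. Next came the calcium switch and the thin filament. Tnnt2 and Tnni3, the tropomyosin-binding and inhibitory troponins, had 2433 ± 450 and 2110 ± 246 FPKM, the cardiac actin Actc1 had 1925 ± 285 and the essential light chain Myl3 had 1877 ± 217. Their ranges overlapped from neighbour to neighbour. Atp2a2, the pump that returns calcium to the sarcoplasmic reticulum (SR), had 1624 FPKM ± 103, and Pln, its inhibitor phospholamban, 1317 ± 162.

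**Figure D2:**
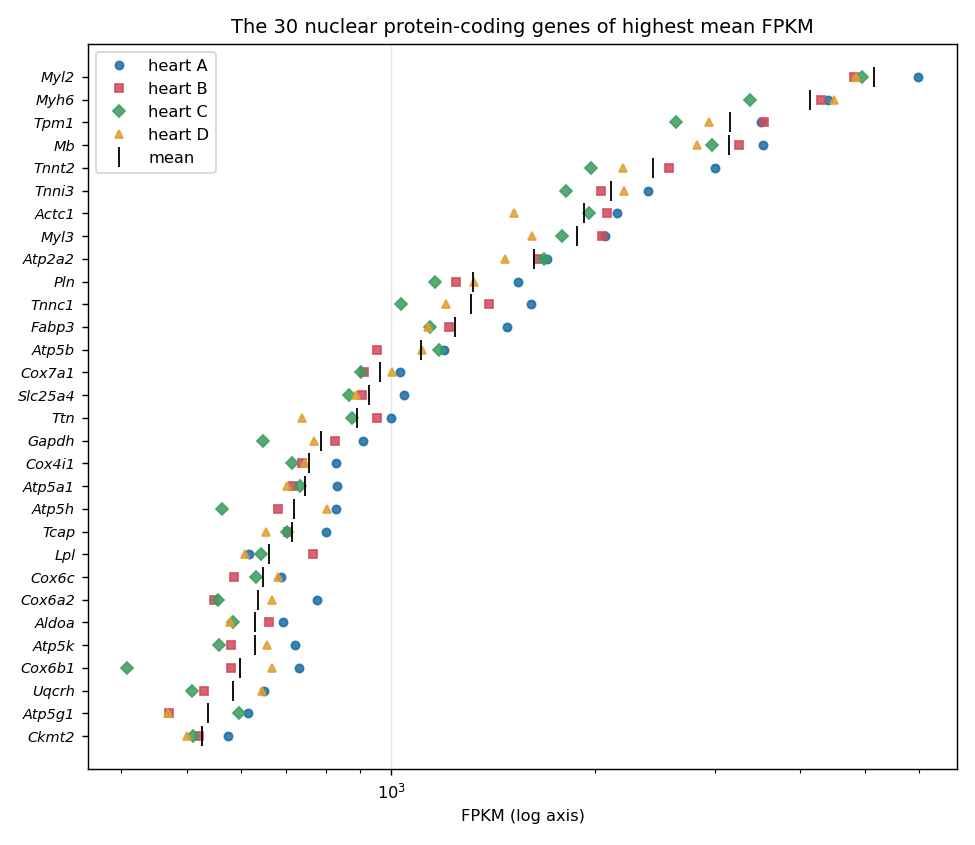
FPKM (log axis) of the 30 nuclear protein-coding genes of highest mean FPKM, one symbol for each heart and a black tick for the mean. Myl2 leads at a mean of 5145 FPKM and Ckmt2 closes the list at 526, and most neighbours in this order overlap between hearts.

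Of these 30 genes, the remaining 20 ran from Tnnc1, the calcium-binding troponin, at 1309 FPKM ± 247 to Ckmt2, the mitochondrial creatine kinase, at 526 ± 33.2. Among them were Fabp3, the fatty acid carrier of muscle, at 1241 ± 163, and Lpl, which frees fatty acids from lipoproteins, at 659 ± 73.7. Atp5b, the catalytic beta subunit of ATP synthase, stood at 1108 ± 111 and Slc25a4, which exchanges ADP for ATP across the inner membrane, at 926 ± 80.4. Ttn, the giant spring of the sarcomere, was at 891 FPKM ± 114 and at rank 16 on this scale. By CPM without length Ttn was first, at 34782 to 38712 CPM, ahead of Myh6, because its message is far longer than the others. Only 18 of the 30 genes stayed among the first 30 when length was left out.

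The sarcomere list held 15.1% ± 0.71 of the FPKM of all nuclear coding genes. Of its 37 members in the files, 34 reached 1 FPKM and the median was 145.4 FPKM, at a median rank of 167 among coding genes. Over all 21884 coding genes the median was 0.67 FPKM. The 3 members below 1 FPKM were Myl4 at 0.71 ± 0.13, Myl7 at 0.11 ± 0.09 and Tnni1 at 0.04 ± 0.03, which are the atrial light chains and the slow skeletal troponin I of fetal heart.

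Adult and fetal partners can be compared within each heart. Myh7, the slow beta heavy chain, stood at 30.8, 52.1, 29.5 and 15.1 FPKM in A to D, so that Myh6 was 143, 82.7, 115 and 299 times as high. Acta1, the skeletal actin of fetal heart, stood at 27.2, 46.4, 7.18 and 5.94 FPKM, and Actc1 was 79.1, 44.8, 272 and 255 times as high. Both ratios were lowest in B, where the fetal partner was highest. Muscle forms of metabolic enzymes exceeded their widespread partners by less and with less spread. Ckm, the muscle creatine kinase, was 71 ± 4.39 times Ckb. Cox6a2, Cox7a1 and Cox8b, the muscle forms of 3 cytochrome oxidase subunits, were 16.4 ± 1.68, 6.45 ± 0.99 and 6.98 ± 0.47 times Cox6a1, Cox7a2 and Cox8a. The glucose transporter Slc2a4, which answers to insulin, was 24.2 ± 3.14 times Slc2a1. Ldhb, the lactate dehydrogenase that prevails in heart, was 2.86 ± 0.1 times Ldha, and the muscle ribosomal protein gene Rpl3l was 1.36 ± 0.11 times Rpl3.

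Promoters of these genes were read from RefSeq (GRCm38.p6) over the 250 bases before the start. A start within 100 bases of the most used isoform was found for 12617 nuclear coding genes, 24 of them in the sarcomere list. A match to the CArG box, the site of serum response factor, was present on either strand in 6 of these 24 promoters, against 1.45% of all 12617. The 6 were Actc1, Acta1, Myl3, Myl7, Myom1 and Ldb3. The MEF2 site was matched in 5 of 24, namely Ttn, Mybpc3, Myoz2, Xirp2 and Synpo2l, against 1.66% of all. No promoter of the 51 respiratory chain and ATP synthase genes with a start held either match. A match describes letters only, and the level of Myl7, which holds one, was given above as 0.11 FPKM. The Actc1 promoter at chr2:114052883-114052952, minus strand, is shown from 77 to 8 bases before the start with the CArG box in capitals.
Actc1: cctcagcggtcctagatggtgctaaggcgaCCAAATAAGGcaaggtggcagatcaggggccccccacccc

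Oxidative phosphorylation was the next large group. All 37 nuclear genes of the complex I list, the NADH dehydrogenase, reached 1 FPKM, with a median of 154.6 FPKM. Ndufb4 was lowest at 43.9 FPKM. Ndufa4 was highest at 471 FPKM, but despite its name it is known as a subunit of cytochrome c oxidase. The 9 genes of complex III had a median of 235.9 FPKM, led by Uqcrh at 583 ± 74.8. For complex IV, 15 of 17 genes reached 1 FPKM, with a median of 307.2. The exceptions were Cox6b2 at 0.71 ± 0.29 and Cox8c, listed at 0, which are known from testis. The 16 ATP synthase genes had the highest median of the functional lists, 420 FPKM. These 4 lists held 3.67, 1.54, 3.13 and 3.87% of the FPKM of nuclear coding genes.

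Fuel supply was as complete. All 36 genes of fatty acid uptake and oxidation and all 21 of the tricarboxylic acid (TCA) cycle reached 1 FPKM, with medians of 87.2 and 133.7 FPKM. Hadhb and Hadha, the trifunctional enzyme of beta-oxidation, stood at 407 ± 42.6 and 291 ± 41.7, and Cpt1b, which admits fatty acids to the mitochondrion, at 112 ± 27.3. In glycolysis and glucose uptake 25 of 26 genes reached 1 FPKM, with a median of 103.6, led by Gapdh at 787 ± 110. The exception was Aldoc, the brain aldolase, at 0.08 ± 0.05. Of the 39 cytosolic ribosomal protein genes all reached 1 FPKM, at a median of 111.3.

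**Figure D3:**
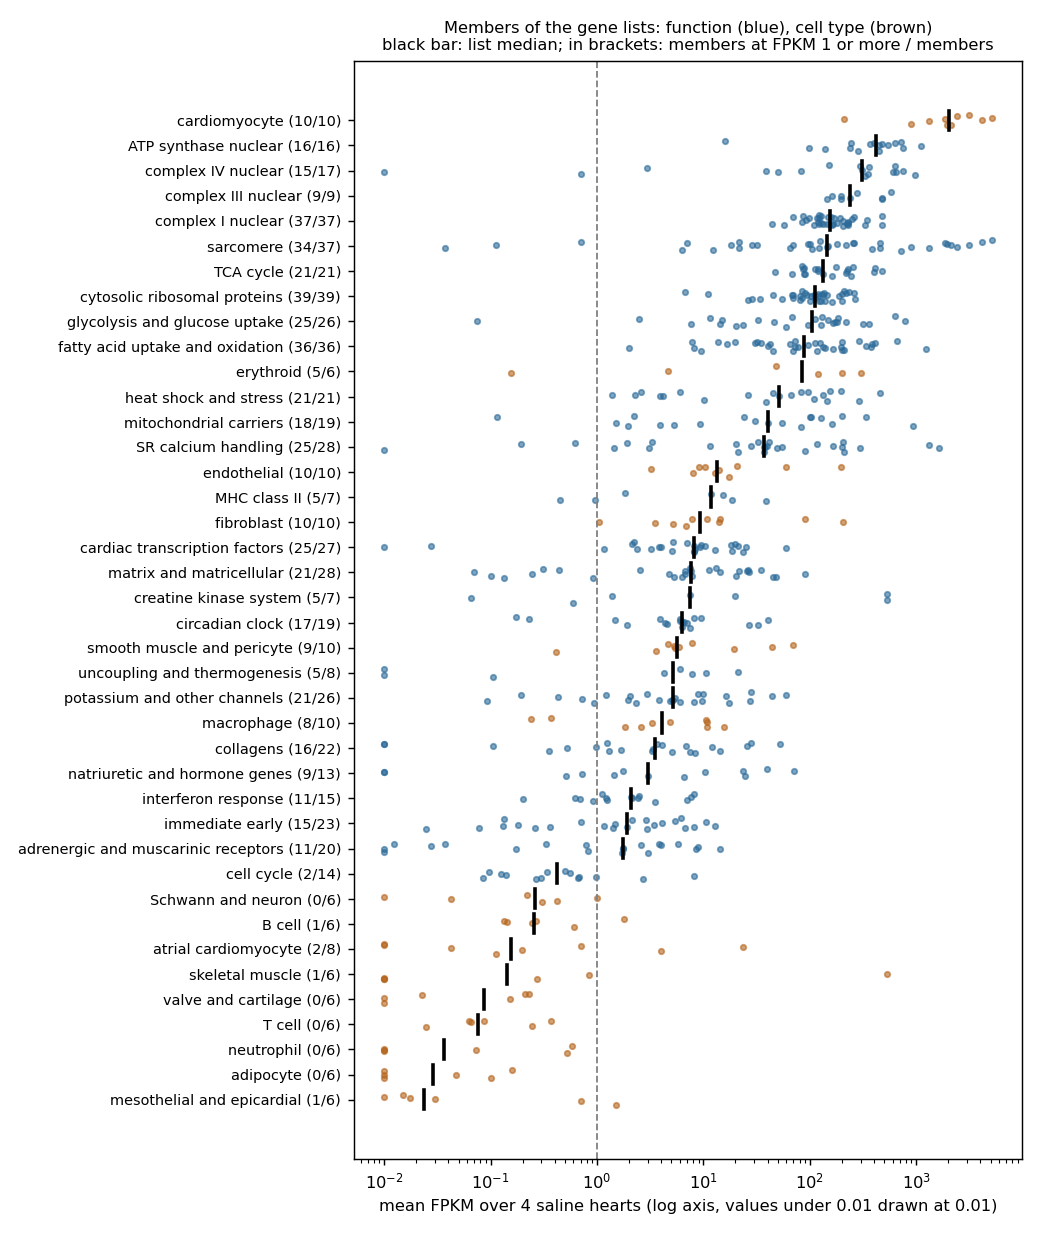
Mean FPKM over the 4 saline hearts (log axis) of each member of the functional (blue) and cell type (brown) lists, with the list median as a black bar and the number of members at 1 FPKM or more in brackets. The sarcomere, respiratory chain and ATP synthase lists have medians of 145.4 to 420 FPKM, and every marker of neutrophils, T cells, adipocytes and valve stays below 1.

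Calcium handling spread over a wide range. Of 28 genes of the SR and calcium list 25 reached 1 FPKM, at a median of 37.3. Below the pump and phospholamban came S100a1 at 294 ± 73.1, the release channel Ryr2 at 211 ± 20.3 and Casq2, the calcium store protein, at 203 ± 52. Sln, the atrial inhibitor of the same pump, was at 0.0075 ± 0.015 FPKM and Fkbp1b, a regulator of the release channel, at 0.19 ± 0.06.

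Channels and receptors were far lower. In the channel list 21 of 26 genes reached 1 FPKM, with a median of 5.14 FPKM. Gja1, the connexin of ventricular gap junctions, led at 59.9 ± 5.25, and Abcc9, a subunit of ATP-sensitive potassium channels, had a mean of 43.7. Gja5 and Hcn4, known from the atria and the conduction system, were at 0.72 ± 0.22 and 0.93 ± 0.08. Among 20 receptor genes 11 reached 1 FPKM. The muscarinic receptor Chrm2 was highest at 14.3 ± 1.8 FPKM. The beta-1 adrenergic receptor Adrb1, through which isoproterenol acts on the heart, was at 2.59 ± 0.59 and Adrb3 at 0.0125 ± 0.015. Adra1a and Adra1b, the alpha-1 receptors, were at 5.79 ± 0.7 and 3.79 ± 0.99 FPKM.

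Cardiac transcription factors were measured at low levels. Their spread between hearts, a median SD of 0.14 log2 CPM, was that of all coding genes tested for spread. Of 27 genes 25 reached 1 FPKM, with a median of 8.1. Hopx, Mef2a and Esrra were highest, at 60.1 ± 5.4, 25 ± 3.17 and 23.5 ± 2.6. Gata4 and Nkx2-5, which act early in the heart lineage, stood at 12.8 ± 1.34 and 8.07 ± 0.88. Hand1, of the early left ventricle, was listed at 0. In the clock list, the output genes Tef and Dbp were highest at 40.3 ± 4.54 and 32.4 ± 4.29 FPKM, and Arntl and Npas2, which drive the loop with Clock, lowest at 0.23 ± 0.08 and 0.18 ± 0.07. Clock itself was at 4.54 ± 0.76.

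Of 28 matrix genes 21 reached 1 FPKM. Dcn, the proteoglycan decorin, was highest at 89.7 FPKM ± 2.6, and Col4a1 and Col3a1 at 52 ± 16 and 27.7 ± 9.52, the highest of 22 collagen genes, of which 16 reached 1 FPKM. Postn, a product of activated fibroblasts, was at 6.35 ± 2.7, Tnc at 0.1 ± 0.03 and Spp1 at 0.07 ± 0.07. Of 14 cell cycle genes only Pcna and Tyms reached 1 FPKM, and Mki67, a marker of dividing cells, was at 0.55 ± 0.25.

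Marker lists hold genes known from a cell type, and their levels do not by themselves show which cells were present. Cardiomyocyte, fibroblast and endothelial markers were all at 1 FPKM or more, 10 of 10 in each list, with medians of 2018, 9.37 and 13.4 FPKM. Smooth muscle and pericyte markers reached it in 9 of 10, macrophage markers in 8 of 10 and erythroid markers in 5 of 6. Of 8 atrial markers only Nppa and Tbx5 did, and Myl7, Sln and Bmp10 were at 0.113 or less. Ighm of 6 B cell markers, Msln of 6 mesothelial markers and Ckm of 6 skeletal muscle markers were the only ones of their lists above it, at 1.81, 1.51 and 524.7 FPKM. None of 6 neutrophil, 6 T cell, 6 adipocyte, 6 valve and 6 Schwann cell or neuron markers reached 1 FPKM. In whole tissue, fewer cells of a type and less RNA per cell cannot be told apart.

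The lncRNA class held 523 genes at 1 FPKM or more. Malat1, a nuclear speckle RNA, led at 1199, 1621, 1209 and 948 FPKM, and Gm49708 followed at 264 ± 46.5. Neat1, the scaffold of paraspeckles, stood at 89.5, 130.9, 106.7 and 90.2 FPKM. Mhrt, which is transcribed antisense from the Myh7 locus, stood at 59.3 ± 7.46, and its reads overlap those of the heavy chain genes where strand is not used. The file lists Rmrp, the RNA of ribonuclease MRP, under 2 identifiers at 202 ± 153 and 2362 ± 404 FPKM, so its level is uncertain.

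Of the genes in the files, 21122 have at least 2 annotated isoforms. RSEM gives each isoform a share of its gene's transcripts. Among the 8032 of them with at least 100 counts in every library, the most used isoform took a median share of 60.7%. It took at least 50% in 5280 genes and at least 90% in 1351. The same isoform came first in all 4 hearts in 6173 genes, or 76.9%. Where it took at least 50% this held for 94.3% of the genes, and otherwise for 43.4%. The first isoform was of protein-coding type in 7178 genes and a retained intron in 306. Where the first and second isoform both had a coding sequence in GENCODE M21, they shared it in 791 of 4381 genes. Isoform shares are estimates, with a median SD between hearts of 5.47 percentage points.

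Some genes used nearly one form. Slc25a3, the phosphate carrier of the inner mitochondrial membrane, has a pair of exons of which a transcript takes one. Isoform Slc25a3-206 took 91.8% ± 0.5 and Slc25a3-201 took 5.24% ± 0.84. The third exon of each, 125 and 122 bases long, were identical at 63.5% of aligned positions. They lie at chr10:91122207-91122331 and chr10:91121922-91122043 (GRCm38, minus strand, coding), and capitals mark bases without an identical partner.
Slc25a3-206: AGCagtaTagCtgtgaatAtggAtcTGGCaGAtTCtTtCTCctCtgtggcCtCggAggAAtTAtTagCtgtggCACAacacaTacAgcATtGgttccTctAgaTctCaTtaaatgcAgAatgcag
Slc25a3-201: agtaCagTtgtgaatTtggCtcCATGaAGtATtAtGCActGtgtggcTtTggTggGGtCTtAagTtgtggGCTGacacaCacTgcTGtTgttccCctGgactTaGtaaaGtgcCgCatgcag

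Pkm, pyruvate kinase, is the textbook case of such a pair and here stayed mixed. Pkm-202 took 63.4% ± 1.92 and Pkm-201 took 33.7% ± 2.83, and the order was the same in all 4 hearts. The ninth exons of both are 167 bases long and identical at 63.9% of aligned positions. They lie at chr9:59675029-59675195 for Pkm-202 and chr9:59675568-59675734 for Pkm-201, both coding and on the plus strand, with differing bases in capitals.
Pkm-202: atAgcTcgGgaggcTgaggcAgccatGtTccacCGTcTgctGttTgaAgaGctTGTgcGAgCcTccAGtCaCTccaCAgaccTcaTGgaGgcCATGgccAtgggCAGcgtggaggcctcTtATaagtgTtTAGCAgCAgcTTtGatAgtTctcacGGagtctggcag
Pkm-201: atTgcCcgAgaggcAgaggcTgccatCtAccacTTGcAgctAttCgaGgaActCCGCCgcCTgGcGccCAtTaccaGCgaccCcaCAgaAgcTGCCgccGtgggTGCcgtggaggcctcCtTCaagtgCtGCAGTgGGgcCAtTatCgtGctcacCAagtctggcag

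Atp5c1, the gamma subunit of ATP synthase, gave 93.7% ± 0.35 to Atp5c1-201, and Atp2a2 gave 92.7% ± 1.32 to Atp2a2-202, whose coding sequence of 2994 bases is shorter than the 3132 of Atp2a2-201, at 3.01% ± 0.35. Myom1, a protein of the M-band, gave 90.1% ± 2.22 to Myom1-203, which lacks a coding exon of 294 bases that Myom1-202 holds. Tpm1-205 took 92.8, 81.2, 97.5 and 89% of Tpm1 in A to D, lowest in B.

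Myh6-205 and Myh6-201 took 39% ± 6.62 and 36.8% ± 12.9 and share their coding sequence, as do Tnnt2-201 and Tnnt2-211, at 34.6% ± 6.56 and 27.2% ± 4.62. All 6 isoforms of Pln encode the same sequence. Other genes were divided between isoforms with different coding sequences. Ttn-201, of 81999 bases, took 45% ± 2.55, ahead of Ttn-215, of 2159 bases, at 19% ± 1.5. These are shares of transcripts and not of reads. A short isoform such as Ttn-215 needs far fewer reads than Ttn-201 for the same share, so its share is uncertain. Ldb3, Fxr1 and Pdlim5 gave their first isoform 60.2% ± 1.89, 51.9% ± 4.12 and 43.5% ± 3.85. In Camk2d and Mbnl1 no isoform exceeded 31.4% ± 0.87 and 18.9% ± 1.46 on average. Their second isoforms had no coding sequence, a retained intron of Camk2d at 15.8% and a processed transcript of Mbnl1 at 14.8%.

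**Figure D4:**
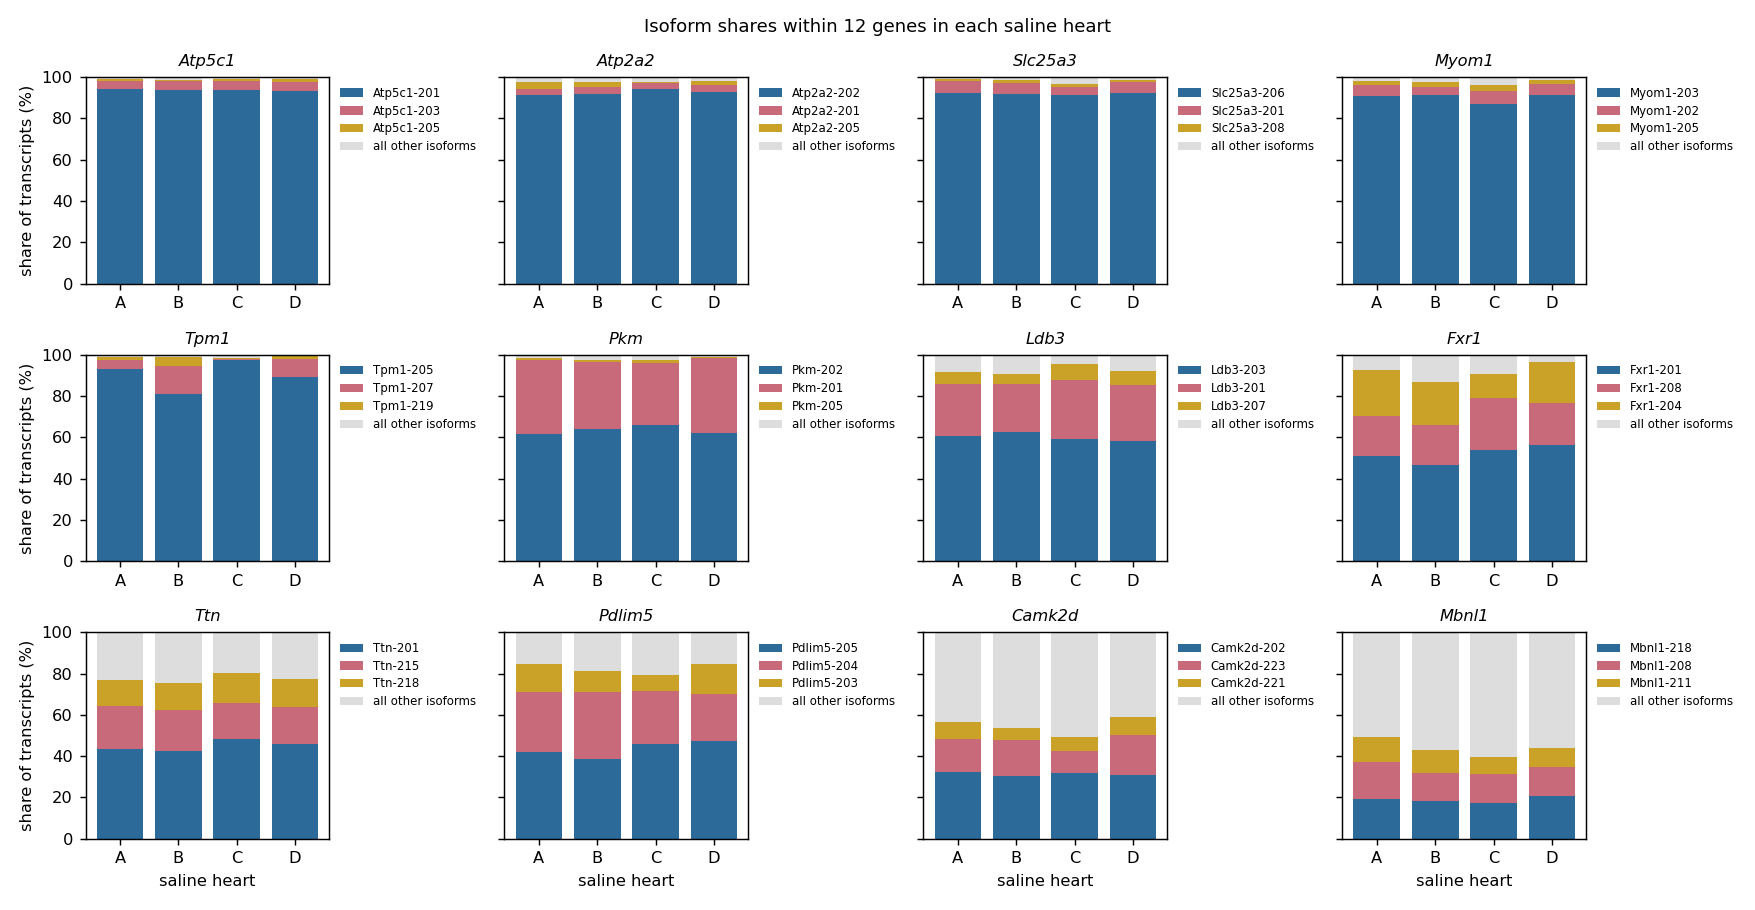
Share of transcripts (%) of the first 3 isoforms of 12 genes in each saline heart, with all other isoforms in grey. Atp5c1, Atp2a2, Slc25a3 and Myom1 are above 90% on one isoform on average, and the first isoforms of Camk2d and Mbnl1 average 31.4 and 18.9%.

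Hearts differed little for most genes. Over 13054 genes with at least 10 counts in every library and a mean of 1 CPM, the median SD of TMM-scaled log2 CPM was 0.15, or 1.11-fold. It was 0.14 for coding genes, 0.19 for lncRNA genes and 0.38 for small RNA genes. The SD exceeded 0.5 in 229 genes and 1 in 26. The biological coefficient of variation common to these 13054 genes was 0.14. Fblim1 and Nr3c1, the glucocorticoid receptor, were the most even, at 64 to 64.5 and 58.2 to 58.6 CPM. Rpl3 stood at 40 to 40.5 CPM and Abl1 at 35.8 to 36.4.

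Among the 200 coding genes of highest SD, saline B was the heart farthest from the mean in 99, against 34.4% of all 11485 coding genes tested. Heat shock genes led. Hspa1b, an inducible HSP70 chaperone, stood at 0.81, 35.9, 0.65 and 0.66 CPM in A to D, and its neighbour Hspa1a at 1.17, 39.6, 0.72 and 1.47. The pair is nearly identical in sequence, so its division between the genes is uncertain, and B was the only high heart for both. Hsph1, of the HSP110 family, stood at 14.2, 54.3, 13.2 and 12.7 CPM, and Hsp90aa1 at 51, 130.4, 35.9 and 38.7. Cryab, the small heat shock protein of muscle, did not share this, at 333 CPM in A and 315 in B, and 10 of the 21 listed stress genes were highest in B.

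The immediate early list, genes that respond within minutes to stress or handling, was highest in B for 16 of 16 scored genes, where 26.7% of all coding genes were highest in B. Egr1 stood at 2.61, 8.42, 2.38 and 2.76 CPM, Jun at 17.9, 27.6, 15.3 and 12.5 and Klf4 at 6.79, 16, 8.44 and 7.02. Some of the most variable genes were high in B and also in A. Nppa and Nppb, the natriuretic peptides, stood at 13.4, 34.4, 9.32 and 5.35 CPM and at 14.4, 33.8, 4.57 and 5.11. Ankrd1, a stretch-responsive sarcomere protein, stood at 306, 431, 153 and 149 CPM, and Acta1 at 30.6, 49.9, 8.72 and 7.34. A lay between B and the other hearts for all 4 genes, which were named after their values were seen. Csrp3 and Xirp1, other stretch-related genes of the sarcomere list, did not follow this order, at 368, 317, 285 and 339 CPM and at 118, 120, 128 and 111 CPM.

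Erythroid genes followed another order. Hbb-bs, a beta-globin, stood at 125.5, 245.4, 119.5 and 44.9 CPM, and all 5 scored members were highest in B and lowest in D. Collagens were highest in B for 17 of 20 genes, matrix genes for 16 of 23, interferon response genes for 11 of 12 and MHC class II genes for 7 of 7. Macrophage markers were highest in B for 7 of 9, endothelial markers for 8 of 10 and fibroblast markers for 5 of 10. Smooth muscle and pericyte markers were highest there for 3 of 9. Cardiomyocyte markers were highest for 0 of 10 in B and also for 0 of 10 in C. The mean deviation of macrophage, endothelial and fibroblast markers in B was 0.24, 0.19 and 0.13 log2. Smooth muscle and pericyte markers lay at 0.05 in B and highest in D, at 0.2. Cardiomyocyte markers lay at -0.11 in B and -0.1 in C. The part of cell composition, RNA quality or handling in these differences was not tested.

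Lists of oxidative metabolism ran the other way. In B the mean deviation of the fatty acid, TCA and complex I lists was -0.24, -0.23 and -0.2 log2. Complex I was also low in C, at -0.17, where the fatty acid and TCA lists lay at 0.01 and -0.003. Other metabolic lists did not set B apart from C. Glycolysis and glucose uptake lay at -0.06 in B and -0.09 in C, and the creatine kinase list at -0.07 in both. Against the median of the other hearts, the median fatty acid gene in B lay at -0.35 log2 and the median TCA gene at -0.33. Under library size alone they lay at -0.15 and -0.16, and on FPKM at -0.14 and -0.15. Of all coding genes 27.4% were highest in D. Complex I was highest there for 31 of 37 genes, ATP synthase for 15 of 16 and cytosolic ribosomal proteins for 31 of 39. The D values depend on scaling, and D also had the largest share of mitochondrial rRNA, whose part in them was not tested. Against library size alone, the median coding gene in D was shifted by -0.27 log2, and the distance of complex I in D from the other hearts fell from 0.35 to 0.03 and that of ribosomal proteins went from 0.3 to -0.02.

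Single genes varied outside these lists. Cyp26b1, which breaks down retinoic acid, stood at 25.3 CPM in A against 2.5, 2.28 and 0.89 in B to D. Fam220a stood at 0.74 CPM in D against 7.05 to 8.66 elsewhere. Ucp3, a mitochondrial carrier induced by fatty acids, stood at 23.5, 7.72, 19.8 and 15.9 CPM, lowest in B. Per1, a clock gene, stood at 15.7, 23.5, 37.1 and 24.8.

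**Figure D5:**
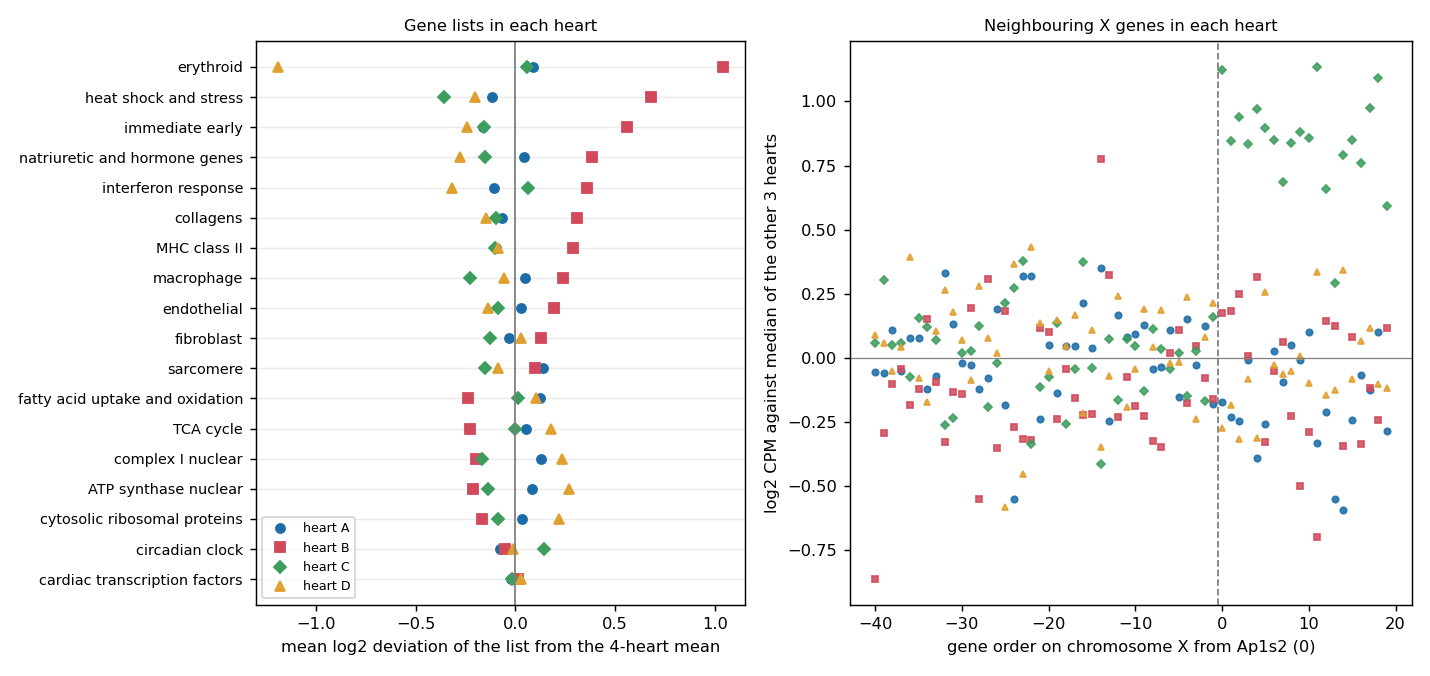
Left, mean log2 deviation of the scored genes of 18 lists from the 4-heart mean in each heart. Right, log2 CPM of 60 neighbouring coding genes on chromosome X in each heart against the median of the other 3, in gene order around Ap1s2, with heart C apart from Ap1s2 onward at a median of 0.85.

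One stretch of a chromosome stood apart in C. Along each chromosome, medians over 10 neighbouring coding genes were taken of each heart against the median of the other 3. In C they ranged from -0.32 to 0.87 log2, and all 15 windows above 0.5 reached into the distal end of the X chromosome. A and D had no window beyond 0.5 in either direction. In B, 6 windows exceeded it, all on chromosome 1 around the interferon-inducible Ifi200 genes, where Ifi203 stood at 16.6, 27.8, 19.4 and 16.6 CPM.

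By TMM-scaled CPM, all 20 coding genes tested from Ap1s2 to Mid1 (chrX:163909017-170005736, GRCm38) were highest in C, where 23.9% of all coding genes were. Against the median of the other 3 hearts, their median was 0.85 log2 or 1.8-fold, with a range from 0.29 for Tlr8 to 1.13 for Tceanc. On FPKM, Tlr8 and Tlr7 were higher in B, at 0.58 and 1.02, than in C, at 0.54 and 0.84. The 20 genes before Ap1s2 had a median of -0.01 in C, and 2 of them were highest in C. The last of these, Ctps2, stood at 3.48, 3.54, 4.01 and 4.18 CPM. Ap1s2, a subunit of a clathrin adaptor, stood at 9.64, 10.9, 21.6 and 8.96, Hccs, which attaches heme to cytochrome c, at 19.4, 16.3, 39 and 18 and Tmsb4x, thymosin beta-4, at 67.1, 77.8, 111.4 and 70.4. Asb11, Msl3 and Prps2 stood at 65.5, 30.7 and 13.3 CPM in C against 33.3 to 41.9, 14.8 to 18.8 and 6.32 to 7.58 in the others. These genes were chosen after their values were seen, and the cause was not tested.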

How the data were processed

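Samples were grouped by the labels' treatment field. Reads had been trimmed with cutadapt 4.1 at a quality of 20 and a minimum length of 50, mapped with HISAT2 2.2.1 to the mouse build GRCm38.p6 and quantified with RSEM 1.3.3, which the submitters list as their tools. The annotation of the RSEM step and its strand setting are not stated, while the study names GENCODE for its transcript assembly. The authors deposited expected counts, which are estimated and not normalized, for genes and isoforms. The authors also deposited FPKM and TPM, which RSEM derives from the counts and the effective length, and the share of each isoform in its gene as a percent.

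Of 55401 gene identifiers, 55141 were in GENCODE M21, which gave types and positions. Where a symbol had more than 1 identifier, the one of higher mean FPKM was used in the lists. A gene was counted as detected at a mean of 1 FPKM, and ranks used genes with an effective length of at least 100 bases in every library. Spread was the SD of log2(CPM + 0.5) with TMM scaling on rounded counts (edgeR 4.0.16, R 4.3.3). The script for it was tested on simulated data. The list score of a heart is the mean deviation of its scored genes from the 4-heart mean. Named genes were the first 30 coding genes, mitochondrial genes, the first 15 lncRNA genes, list members of highest and lowest level, the 25 of highest and 10 of lowest SD, and listed or highly expressed genes with several isoforms. Members and lists were chosen with earlier results of these data known, and there was no test between groups. With 4 hearts and 28889500 to 117777005 counts, a floor of 3 counts in the shallowest library is 0.1 CPM by library size alone. The study describes replicate hearts, and the SD covers the spread between these 4 samples, technical differences included. Values of some list members are not reported here. DESeq2 1.42.0 size factors were an alternative scaling.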

Additional observations from a re-analysis of the deposited data

Results flagged for a closer look

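For each value given per heart in 4 hearts, the gap of the highest or lowest heart to its neighbour was divided by the whole range, and a ratio above Dixon's critical value for 4 samples set the heart apart. Of 276 values examined, 22 were apart, or 7.97%. Chance sets apart about 1 in 20 groups, but this rate does not apply to the whole, since the values include genes chosen for a high SD and a pair with identical values. Saline B was the heart apart in 13, C in 6 and D in 3.

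In B, the list scores of immediate early genes and MHC class II genes were 0.56 and 0.29 log2, and those of mitochondrial carriers and uncoupling genes were -0.18 and -0.20. Also in B, Hspa1b stood at 35.9 CPM, Hspa1a at 39.6, Neat1 at 977.8, Sparc, a collagen-binding matrix protein, at 122.4, H2-Eb1 at 16.6 and Lyve1, of resident macrophages, at 12 CPM, each above the other 3 hearts. Rgs5, of pericytes, was also highest there at 298.4 CPM. Agtr1a, the angiotensin II receptor, was at 9.04 CPM and Uqcrc1, of complex III, at 316.3 CPM, each below the other 3 hearts.

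In C, the snRNA genes Gm23472 and Gm23444, identical in value in every heart, stood at 1.62 CPM against 39.4 to 43.9 elsewhere, the pseudogene Gm12693 at 0.22, Ckb at 8.57 and the fibroblast genes Dpt and Lum at 17.4 and 16.1 CPM, each the lowest of the 4. In D, the share of small RNA was 0.477% of counts and Atp5g2 stood at 12.9 CPM, both the highest, and Fam220a stood at 0.74 CPM, the lowest. No cause was tested.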

How the results depend on the processing

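No paired analysis was possible because the values come from 1 group and from no test. As a share of summed FPKM, mitochondrial rRNA held 31.8%, nuclear coding genes 15.9%, mitochondrial messages 9.06%, misc_RNA 24.1%, lncRNA 0.483%, pseudogenes 6.8% and small RNA 11.4%. As a share of the counts of nuclear genes, coding genes held 78.9%, misc_RNA 8.19%, lncRNA 2.65%, pseudogenes 8.47% and small RNA 0.892%. Of the first 30 coding genes, 18 were shared with the first 30 by CPM without length.

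The share of genes with a first isoform of at least 50% became 68.5% with a minimum of 1000 counts, 67.2% with 10, 81.5% on expected counts and 81.8% with protein-coding isoforms only. The share with the same first isoform in every heart became 83.6, 70.5, 85.5 and 78.4% in that order, and 79 to 81.2% with 1 heart left out, where 3 hearts have to agree in place of 4.

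The median SD of log2 CPM became 0.198 under library size alone, 0.191 on FPKM, 0.159 and 0.117 with pseudocounts of 0.1 and 2, 0.112 for any gene with a count and 0.125 for genes of at least 10 CPM. It lay between 0.126 without B and 0.151 without A. Of the 25 genes of highest SD, 9 were shared when any gene with a count was used, 11 for genes of at least 10 CPM, and 16 without B to 23 without A. The biological coefficient of variation lay between 0.127 without B and 0.157 without A.

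Distances of gene lists in one heart from the others were chosen after seeing the data. The ribosomal proteins in D turned from 0.3 to -0.024 log2 under library size alone and to -0.0094 on FPKM. The distal X genes in C stood between 0.70 with a pseudocount of 2 and 0.96 under library size alone. The cause of these changes was not tested.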
